A study of Homo sapiens with 6 samples.

Results

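Host genes of small RNAs were compared between 2 groups of libraries labelled RKO, the name of a colorectal carcinoma cell line. They were chosen by name from the deposited table of raw counts. The names were SNHG followed by a number, GAS5, ZFAS1, and MIR names without a hyphen that end in HG. The rule took 94 of 39396 gene rows, of which 30 are hosts of small nucleolar RNAs (snoRNAs) and 64 are hosts of microRNAs. All 6 libraries carry the labels RKO and wild type: 3 are labelled as treated with olaparib, an inhibitor of the PARP enzymes that sense DNA strand breaks, and 3 with its solvent DMSO. The title of the study links olaparib to the acetyltransferase KAT2B and to the recombination protein RAD51C. For dose and length of treatment, the sources used here give no value. Olaparib and DMSO libraries below mean libraries that carry those labels.

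A host gene carries a small RNA inside its own transcript. snoRNAs lie in introns, are cut out after splicing and guide chemical modification of ribosomal RNA, as box C/D RNAs (methylation) or box H/ACA RNAs (pseudouridine). Many spliced snoRNA hosts encode no protein, are removed by nonsense-mediated decay and begin with a pyrimidine tract at their 5′ end, as mRNAs of ribosomal proteins do. Primary microRNA transcripts are cleaved in the nucleus by DROSHA and in the cytoplasm by DICER1, and the mature strand pairs with its targets mainly through the seed, bases 2 to 8. The level of a host measures the long transcript and not the small RNA.

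The 4 groups of mature microRNAs below lie inside hosts whose levels the results turn on, with the seed in capitals, 5′ to 3′, from RefSeq (GRCh38.p14). The first group shares the let-7 seed GAGGUAG, which 7 mature microRNAs from 9 hairpins in 6 of the hosts carry. The second holds the partners of let-7 in the clusters of MIR100HG on chromosome 11 and MIR99AHG on chromosome 21, which share their seeds across the 2 chromosomes.
hsa-let-7a-5p (MIR100HG, MIRLET7BHG and MIRLET7A1HG): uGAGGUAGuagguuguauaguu
hsa-let-7b-5p (MIRLET7BHG): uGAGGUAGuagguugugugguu
hsa-let-7c-5p (MIR99AHG): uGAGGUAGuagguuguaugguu
hsa-miR-4458 (MIR4458HG): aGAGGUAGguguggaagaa
hsa-miR-4500 (MIR4500HG): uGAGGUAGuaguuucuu
hsa-miR-100-5p (MIR100HG): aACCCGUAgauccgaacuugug
hsa-miR-99a-5p (MIR99AHG): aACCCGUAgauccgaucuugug
hsa-miR-125b-5p (MIR100HG and MIR99AHG): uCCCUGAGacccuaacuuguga
The third group comes from the microRNA hosts with the most counts, MIR22HG and MIR23AHG, and the fourth from other hosts with large differences.
hsa-miR-22-3p (MIR22HG): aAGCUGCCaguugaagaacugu
hsa-miR-23a-3p (MIR23AHG): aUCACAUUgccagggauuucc
hsa-miR-27a-3p (MIR23AHG): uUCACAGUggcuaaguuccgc
hsa-miR-24-3p (MIR23AHG): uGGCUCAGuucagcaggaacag
hsa-miR-34a-5p (MIR34AHG): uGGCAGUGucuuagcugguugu
hsa-miR-193b-3p (MIR193BHG): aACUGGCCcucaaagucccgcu
hsa-miR-365a-3p (MIR193BHG): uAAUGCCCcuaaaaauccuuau
hsa-miR-29b-3p (MIR29B2CHG): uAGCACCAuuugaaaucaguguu
hsa-miR-29c-3p (MIR29B2CHG): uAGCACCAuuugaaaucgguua
hsa-miR-31-5p (MIR31HG): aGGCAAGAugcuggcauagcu
hsa-miR-646 (MIR646HG): aAGCAGCUgccucugaggc

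The starts of 7 snoRNA hosts are shown because each has CTTTC or CTTTT near its start site, as many protein-coding snoRNA hosts do. Each line holds 20 bases before the start site of the RefSeq promoter table and 30 bases from it on, on the gene's own strand. That site lies inside the annotated gene for SNHG12 and ZFAS1. Capitals mark the first CTTTC or CTTTT. Its offset from the start site is 0 in SNHG5, SNHG19 and ZFAS1, 1 in SNHG12 and 5 in SNHG16. The offset is -4 in SNHG8 and -9 in SNHG29, where the match ends before the start site.
SNHG12, chr1:28581844-28581893, minus strand: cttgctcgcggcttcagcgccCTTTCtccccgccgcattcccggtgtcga
SNHG8, chr4:118278742-118278791, plus strand: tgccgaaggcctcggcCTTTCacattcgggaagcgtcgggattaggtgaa
SNHG5, chr6:85678704-85678753, minus strand: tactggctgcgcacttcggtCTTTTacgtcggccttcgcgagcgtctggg
SNHG19, chr16:2155329-2155378, minus strand: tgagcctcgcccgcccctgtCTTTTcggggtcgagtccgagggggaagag
SNHG29, chr17:16438967-16439016, plus strand: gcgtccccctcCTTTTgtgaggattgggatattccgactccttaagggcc
SNHG16, chr17:76557744-76557793, plus strand: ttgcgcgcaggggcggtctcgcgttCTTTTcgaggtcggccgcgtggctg
ZFAS1, chr20:49278622-49278671, plus strand: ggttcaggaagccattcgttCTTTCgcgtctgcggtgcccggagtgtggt
In 9 of 26 snoRNA hosts that have an entry (34.6%), a window of 21 bases centred on the start held CTTTC or CTTTT whole on the gene's strand. On the other strand it did so in 1 (3.85%). Among genes with an entry, the share was 53.8% for protein-coding snoRNA hosts (14 of 26) and 12.2% for microRNA hosts (6 of 49). It was 5.66% for all 27305 promoters, with 3.76% on the other strand. The match describes letters only. Of the 9 snoRNA hosts that hold it, 4 were called lower in the olaparib libraries (SNHG8, SNHG12, SNHG16 and SNHG19), 2 higher (SNHG4 and ZFAS1) and 3 were not called (SNHG5, SNHG29 and SNHG32).

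The libraries held 28715138 to 31387990 counts in the olaparib group and 29544974 to 42423785 in the DMSO group, and host genes took 0.152 to 0.162% and 0.121 to 0.170% of them. Whether replicates are separate cultures is stated nowhere, so a p-value here reflects library-to-library spread alone, and that spread may be technical. Markers of cell type differed between the groups. Of 12 markers of colorectal epithelium, 3 reached 1 CPM, a count scaled by library size, in each group; their summed level was 806 to 1088 CPM in olaparib and 242 to 311 CPM in DMSO. Most of that sum is KRT8 (580 against 175 CPM) and KRT18 (400 against 75.2 CPM), keratins of simple epithelia. CDX2, the intestinal transcription factor, went the other way, with 0 counts in olaparib beside 24.5 CPM in DMSO; CEACAM5 had none in olaparib, KRT19 none in DMSO and CDX1 none in either. All 10 markers of embryonic kidney lines reached 1 CPM in DMSO and 3 did in olaparib. Their sums were 426 to 624 and 70.5 to 78.0 CPM. In olaparib NEFL, LIN28B, PAX2 and BEX2 had no count. IRS4 (0.0468 against 141.8 CPM in DMSO), NEFM (0.0118 against 57.7 CPM) and EYA1 (0.0118 against 4.53 CPM) were far lower in olaparib. The 3 that reached 1 CPM there were INA, SIX2 and HOXA11. INA (20.1 against 48.3 CPM in DMSO) and SIX2 (27.95 against 45.4 CPM) were lower. HOXA11 went the other way (25.6 against 19.6 CPM). Among fibroblast markers 3 of 8 reached 1 CPM in olaparib and 5 in DMSO (summed 103 to 136 against 93.8 to 101 CPM). Most of that sum is COL1A1 (112.5 against 68.4 CPM), while LUM (0.209 against 18.8 CPM), COL3A1, DCN and FAP were lower in olaparib. Blood markers at 1 CPM were 1 and 2 of 8 (2.94 to 3.62 against 4.72 to 5.96 CPM). Endothelial markers at 1 CPM were 2 and 0 of 6 (23.5 to 25.6 against 2.04 to 2.49 CPM). Most of the endothelial sum in olaparib is CDH5 (20.5 against 0.128 CPM). PECAM1 was higher too, and KDR was lower. The source of the cells and the treatment cannot be told apart, and no difference below is assigned to olaparib. In such bulk samples fewer cells of a type and less RNA per cell cannot be told apart either.

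Of the hosts tested, 16 of 27 microRNA hosts were higher in the olaparib libraries and 13 of 26 snoRNA hosts were lower. Over all genes tested, 35.4% were higher and 40.3% lower. Counts were tested by edgeR's quasi-likelihood test, and a gene was called at a Benjamini-Hochberg adjusted p under 0.05 over all genes tested. Of the 94 hosts, 53 had enough counts to be tested, 25 had counts below the filter and 16 had none. Of the 53, 21 were called higher, 18 lower and 14 not, so 73.58% were called. The same test called 75.7% of all 17078 genes, 35.4% higher and 40.3% lower, so the share of hosts called is near the background. The groups did not overlap for 40 of the 53 hosts, with olaparib above in 22 and below in 18, against 79.3% of all genes (37.3% above, 42.0% below).

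The 2 classes had different splits, which were not tested against each other. Of 27 microRNA hosts tested, 16 were higher, 5 lower and 6 not called, with a median log2 fold change of 1.02. Of 26 snoRNA hosts tested, 5 were higher, 13 lower and 8 not called, with a median of -0.52. The median over all genes tested was -0.09. A difference of at least 2-fold was called higher in 14 microRNA hosts and lower in 3, and higher in 1 snoRNA host and lower in 4, beside 22.0% and 25.0% of all genes. Summed over the class, microRNA hosts came to 335 to 345 CPM in the olaparib libraries and 102 to 115 CPM in DMSO. The largest parts of that sum were MIR23AHG (mean 100.3 against 15.9 CPM) and MIR22HG (74.8 against 10.2 CPM). Summed snoRNA hosts came to 1228 to 1304 CPM in olaparib and 1068 to 1589 CPM in DMSO, where the groups overlap.

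**Figure D1:**
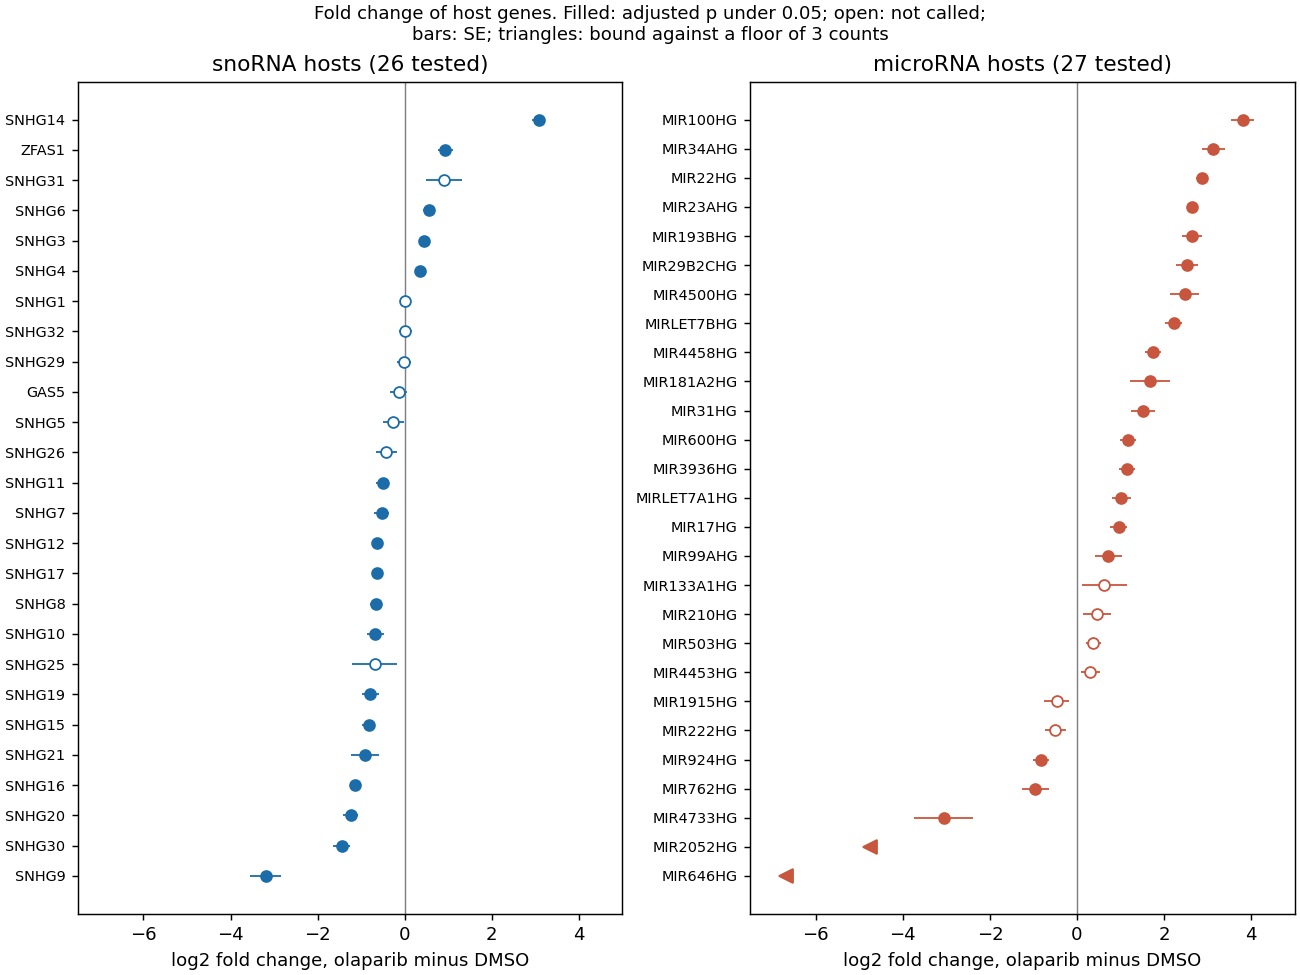
Log2 fold change, olaparib minus DMSO, of the 26 snoRNA hosts (left) and 27 microRNA hosts (right) tested, with SE bars; filled points passed an adjusted p under 0.05, open points did not, and triangles are bounds for genes without a count in olaparib. Most filled points lie left of 0 among snoRNA hosts (13 of 18) and right of 0 among microRNA hosts (16 of 21).

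MIR100HG, the host of the miR-100, let-7a-2 and miR-125b-1 cluster (chr11:122028329-122422871, minus strand), had the largest fold among the hosts called higher. Its levels were 8.99, 11.3 and 10.7 CPM in olaparib replicates 1 to 3 and 0.854, 0.876 and 0.497 CPM in DMSO. Every olaparib library lay far above every DMSO library. By edgeR's test the gene was 14.03-fold higher (log2 3.81 ± 0.26 SE, adjusted p = 7.37e-08).

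The other hosts with the let-7 seed were also higher in the olaparib libraries. MIRLET7BHG, on chromosome 22 (chr22:46085997-46113928), hosts let-7a-3 and let-7b and held 12.7, 14.5 and 17.01 CPM in olaparib against 3.13, 3.64 and 2.73 CPM in DMSO. The groups were apart, and edgeR gave 4.66-fold (log2 2.22 ± 0.19 SE, adjusted p = 5.32e-07). MIR4458HG on chromosome 5 held 18.2, 14.1 and 17.8 CPM against 6.03, 4.38 and 4.54 CPM, again without overlap and 3.35-fold higher (edgeR adjusted p = 3.24e-06). MIR4500HG on chromosome 13 held 4.22, 4.54 and 4.17 CPM against 0.830, 0.370 and 1.06 CPM and was 5.55-fold higher (edgeR adjusted p = 2.97e-05). MIRLET7A1HG on chromosome 9, the host of let-7a-1, let-7f-1 and let-7d, held 6.97, 6.40 and 8.91 CPM against 3.32, 4.51 and 3.21 CPM. It was 2.03-fold higher with no overlap (edgeR adjusted p = 0.00122).

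MIR99AHG, the host of miR-99a, let-7c and miR-125b-2, was the one let-7 host whose groups overlapped. It held 5.65, 3.20 and 6.01 CPM in olaparib and 4.06, 2.09 and 2.80 CPM in DMSO, so that olaparib replicate 2 fell below DMSO replicate 1. It was 1.65-fold higher and passed narrowly (log2 0.72 ± 0.31 SE, edgeR adjusted p = 0.0489). The call was lost without olaparib replicate 1 or 3 (edgeR adjusted p = 0.133 and 0.148), without DMSO replicate 2 or 3 (0.163 and 0.143), with limma-voom (0.0648) and with library size alone (0.0759). Thus 6 of 6 hosts with the let-7 seed were called higher, 5 of them without overlap, where 35.4% of all genes were called higher. The grouping by seed was made with these values known and carries no test.

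MIR34AHG, the host of miR-34a, which is known as a target of p53, held 9.03, 8.55 and 10.3 CPM in olaparib and 0.925, 0.741 and 1.45 CPM in DMSO. The groups did not overlap, and the gene was 8.79-fold higher (log2 3.14 ± 0.27 SE, edgeR adjusted p = 4.28e-07). It lies on chromosome 1 (chr1:9148011-9182338), where protein-coding genes within 5 Mb had a median log2 fold change of -0.64.

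MIR23AHG and MIR22HG had the most counts of the microRNA hosts. MIR23AHG on chromosome 19 hosts the cluster of miR-23a, miR-27a and miR-24-2, and held 94.0, 105 and 102 CPM in olaparib and 18.1, 15.0 and 14.8 CPM in DMSO. MIR22HG on chromosome 17 held 83.0, 72.3 and 69.1 CPM against 11.3, 9.77 and 9.67 CPM. Within each group both genes varied little beside the gap between the groups. They were 6.29-fold and 7.30-fold higher (log2 2.65 ± 0.12 and 2.87 ± 0.12 SE, edgeR adjusted p = 1.9e-09 and 1.53e-09).

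A further 3 hosts of clusters were several-fold higher. MIR193BHG on chromosome 16, the host of miR-193b and miR-365a, held 22.4, 21.4 and 21.2 CPM against 4.72, 3.33 and 2.33 CPM and was 6.25-fold higher (edgeR adjusted p = 4.51e-07). MIR29B2CHG on chromosome 1, the host of miR-29b-2 and miR-29c, held 11.0, 7.31 and 7.28 CPM against 1.16, 1.72 and 1.56 CPM and was 5.78-fold higher (edgeR adjusted p = 2.26e-06). MIR17HG on chromosome 13, whose 6 microRNAs form the miR-17-92 cluster of proliferating cells, held 9.34, 8.46 and 11.9 CPM against 5.55, 4.58 and 5.06 CPM and was 1.95-fold higher (edgeR adjusted p = 0.000639). None of these 3 hosts had a DMSO library as high as its lowest olaparib library.

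Of the remaining called hosts, MIR31HG on chromosome 9, next to genes of the type I interferon cluster, held 3.56, 3.82 and 3.43 CPM in olaparib and 1.495, 1.35 and 0.949 CPM in DMSO. It was 2.85-fold higher with no overlap (edgeR adjusted p = 0.000297), and IFNE, the interferon gene inside its borders, was also higher (log2 2.61 ± 0.31 SE, edgeR adjusted p = 9.27e-06). MIR600HG held 9.90, 11.9 and 11.2 CPM against 5.43, 4.34 and 4.81 CPM (2.26-fold, edgeR adjusted p = 6.9e-05). MIR3936HG and MIR181A2HG were 2.22-fold and 3.20-fold higher (edgeR adjusted p = 8.73e-05 and 0.00564). The groups of all 4 genes were apart.

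**Figure D2:**
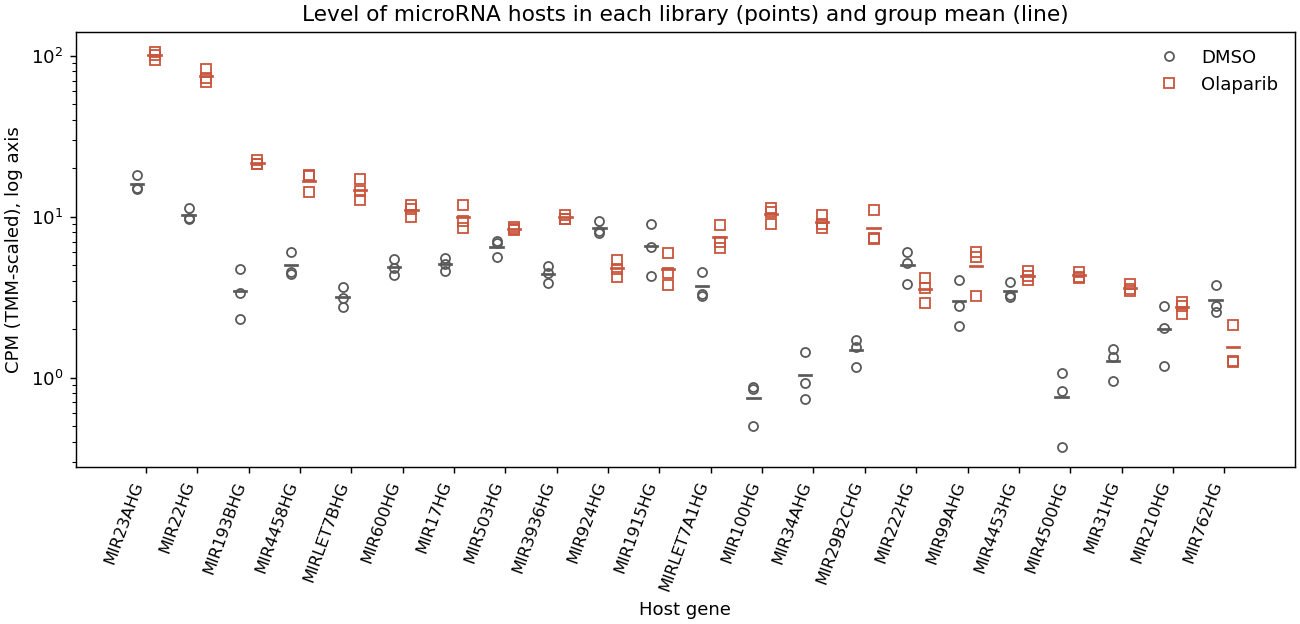
Level in CPM (log axis) of the 22 tested microRNA hosts with a mean of at least 1 CPM that had counts in every library; circles are DMSO libraries, squares olaparib libraries and short lines group means. The largest gaps are those of MIR100HG (10.3 against 0.742 CPM) and MIR34AHG (9.29 against 1.04 CPM), while MIR503HG and MIR210HG have neighbouring groups.

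Lower microRNA hosts were few, and those with the largest folds had no or few counts in olaparib. MIR646HG on chromosome 20 (chr20:60138492-60322256) was without a count in every olaparib library and held 4.18, 2.76 and 3.39 CPM in DMSO, which makes it at least 103-fold lower when 3 counts are taken as the floor of a group without any (edgeR adjusted p = 7.19e-07). MIR2052HG likewise had no olaparib count, beside 0.907 ± 0.135 CPM in DMSO (SD, n = 3), and was at least 26.9-fold lower (edgeR adjusted p = 2.95e-05). MIR4733HG had 8 counts over the olaparib libraries and 89 over DMSO (8.37-fold, edgeR adjusted p = 0.00117). A doubled floor, as if each read of a pair had been counted, would give at least 51.3-fold for MIR646HG and 13.5-fold for MIR2052HG. These 3 are low genes in both groups: MIR2052HG and MIR4733HG were not tested under a filter of at least 1 CPM in 3 libraries.

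MIR762HG and MIR924HG, with counts in every library, completed the lower hosts. MIR762HG held 1.25, 1.27 and 2.12 CPM in olaparib and 2.54, 3.74 and 2.78 CPM in DMSO, and was 1.94-fold lower with no overlap (edgeR adjusted p = 0.0132). Its call was lost without olaparib replicate 2 or DMSO replicate 2 (edgeR adjusted p = 0.0548 and 0.0505). It overlaps the protein-coding gene BCL7C, which was lower too (log2 -1.98 ± 0.14 SE). MIR924HG held 4.71, 5.39 and 4.21 CPM against 8.19, 7.88 and 9.38 CPM and was 1.78-fold lower (edgeR adjusted p = 0.00155).

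Of the 6 microRNA hosts that were not called, MIR503HG and MIR4453HG had groups apart, and the groups of the others overlapped. MIR210HG, whose microRNA is induced in hypoxia, held 2.79, 2.48 and 2.94 CPM in olaparib and 2.80, 2.02 and 1.18 CPM in DMSO, with overlap (log2 0.45 ± 0.32 SE, edgeR adjusted p = 0.219). Without DMSO replicate 1 it passed (log2 0.78, edgeR adjusted p = 0.0425). MIR503HG held 8.58, 8.39 and 8.20 CPM against 5.58, 6.84 and 7.03 CPM; the groups were apart, yet the test was not passed (edgeR adjusted p = 0.0716). MIR222HG, the host of miR-221 and miR-222, was at 3.55 ± 0.628 against 5.001 ± 1.11 CPM (SD, n = 3; edgeR adjusted p = 0.0854) and passed without DMSO replicate 1 (adjusted p = 0.0201). MIR1915HG gave adjusted p = 0.148 by edgeR, and 0.0344 without DMSO replicate 3, while MIR4453HG and MIR133A1HG gave 0.209 and 0.288.

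Among snoRNA hosts, SNHG14 had by far the largest rise. This transcript runs through the Prader-Willi region of chromosome 15 (chr15:24823608-25419462, plus strand), an imprinted locus expressed from the paternal copy, and carries the tandem SNORD115 and SNORD116 genes. It held 118, 117 and 116 CPM in olaparib and 15.3, 10.5 and 15.5 CPM in DMSO. The olaparib libraries were almost equal and the groups far apart, for an 8.43-fold difference (log2 3.08 ± 0.14 SE, edgeR adjusted p = 3.18e-09).

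Protein-coding genes inside SNHG14 differed by unequal amounts. SNRPN, which shares its 5′ region with SNHG14, stood at 4.66 ± 0.402 CPM in olaparib and 0.243 ± 0.0678 CPM in DMSO (SD, n = 3; log2 4.25 ± 0.33 SE). SNURF was higher by 4.32 on the log2 scale. UBE3A, which lies antisense to the far end of SNHG14, was at 82.8 ± 4.33 against 64.1 ± 7.10 CPM (log2 0.37 ± 0.11 SE). All 3 passed edgeR's test (adjusted p = 1.89e-07, 3.65e-06 and 0.00785). The sources used here do not say whether counting used strand, so reads of SNHG14 and of genes that overlap it cannot be told apart.

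ZFAS1, the host of 3 SNORD12 genes on chromosome 20, held 27.5, 31.7 and 32.9 CPM in olaparib and 11.7, 17.98 and 18.6 CPM in DMSO. It was 1.91-fold higher with no overlap (log2 0.93 ± 0.17 SE, edgeR adjusted p = 0.000315), although its neighbours had a median of -0.08. SNHG6, the host of SNORD87, held 95, 102 and 100 CPM against 52.1, 82.2 and 66.9 CPM and was 1.48-fold higher (edgeR adjusted p = 0.00325). SNHG3 held 92.5, 102 and 103 CPM against 73.1, 77.1 and 69.1 CPM and was 1.36-fold higher (edgeR adjusted p = 0.00126). For SNHG6 and SNHG3 all olaparib libraries were above all DMSO libraries. RCC1, which overlaps SNHG3, was lower (log2 -0.73 ± 0.13 SE, edgeR adjusted p = 0.000224).

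SNHG4, the last of the 5 higher snoRNA hosts, had overlapping groups and was 1.28-fold higher (edgeR adjusted p = 0.0256). Its call was lost without olaparib replicate 2 or 3 (edgeR adjusted p = 0.109 and 0.0711), without DMSO replicate 2 or 3 (0.0707 and 0.106) and with library size alone (0.0643).

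Of the 13 lower snoRNA hosts, SNHG9 on chromosome 16, the host of SNORA78, had the largest fold. It held 0.523, 0.685 and 0.318 CPM in olaparib and 3.75, 4.14 and 6.21 CPM in DMSO. Its olaparib levels were all under 1 CPM and apart from DMSO, for a 9.15-fold difference (log2 -3.19 ± 0.35 SE, edgeR adjusted p = 4.23e-06). SNHG19, which lies on the same arm and hosts SNORD60, held 5.37, 7.15 and 8.84 CPM against 11.3, 12.3 and 13.2 CPM and was 1.73-fold lower (edgeR adjusted p = 0.00288). The neighbours of both genes had a median of -0.08.

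On chromosome 17, 3 hosts were more than 2-fold lower. SNHG16, the host of SNORD1A, SNORD1B and SNORD1C, held 37.6, 37.1 and 41.3 CPM in olaparib and 83.5, 88.8 and 84.3 CPM in DMSO (2.21-fold, log2 -1.14 ± 0.10 SE, edgeR adjusted p = 4.4e-07). SNHG20, nearby on the same arm, held 7.71, 7.90 and 8.91 CPM against 17.9, 23.5 and 16.8 CPM (2.37-fold, edgeR adjusted p = 2.5e-05). SNHG30, the host of SNORD7, held 5.47, 4.15 and 4.74 CPM against 10.8, 15.1 and 13.2 CPM (2.72-fold, edgeR adjusted p = 2.22e-05). The groups of all 3 were apart. Protein-coding neighbours had medians of -0.57 and -0.60 for SNHG16 and SNHG20, and -0.04 for SNHG30.

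Several abundant hosts were lower by less than 2-fold. SNHG15 on chromosome 7 held 53.3, 54.2 and 51.8 CPM in olaparib and 77.1, 120 and 85.6 CPM in DMSO (1.77-fold, edgeR adjusted p = 0.00025). SNHG8 held 19.9, 21.4 and 21.1 CPM against 26.5, 38.4 and 33.4 CPM (1.57-fold, edgeR adjusted p = 0.00111). SNHG12 held 36.6, 35.7 and 36.6 CPM against 49.0, 64.8 and 54.9 CPM (1.55-fold, edgeR adjusted p = 0.000354). In each of the 3 the olaparib libraries were close together, DMSO replicate 1 was lowest and DMSO replicate 2 highest in its group, and the groups did not overlap.

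SNHG12 and SNHG3 are close together on chromosome 1 (chr1:28578538-28582983, minus strand, and chr1:28505943-28510892, plus strand) and went in opposite directions. Their protein-coding neighbours had nearly the same medians, -0.56 and -0.58. SNHG17 and SNHG11, also close together, on chromosome 20, were both lower, by 1.55-fold and 1.42-fold (edgeR adjusted p = 0.000139 and 0.00753).

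Hosts of small Cajal body RNAs, which guide modification of spliceosomal RNA, were also among the lower genes. SNHG10, the host of SCARNA13, held 5.82, 5.81 and 4.31 CPM in olaparib and 9.42, 8.12 and 7.86 CPM in DMSO (1.59-fold, edgeR adjusted p = 0.00748). SNHG21, the host of SCARNA15, held 0.872, 1.21 and 1.52 CPM against 1.92, 2.63 and 2.26 CPM (1.88-fold, edgeR adjusted p = 0.0193). The groups of both were apart, but the call of SNHG21 was lost without olaparib replicate 1 or DMSO replicate 2 (edgeR adjusted p = 0.0641 and 0.0561).

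SNHG7 passed the test with overlapping groups. It held 68.2, 69.99 and 67.9 CPM in olaparib and 67.5, 130 and 100 CPM in DMSO, so that DMSO replicate 1 was at the olaparib level. It was 1.44-fold lower (edgeR adjusted p = 0.0187). The call was lost without DMSO replicate 2 or 3 (edgeR adjusted p = 0.0762 and 0.0558), without olaparib replicate 3 (0.0594) and with no filter beyond 1 count (0.0559). DIPK1B, which overlaps SNHG7, was 9.70-fold lower (edgeR adjusted p = 2.72e-08).

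**Figure D3:**
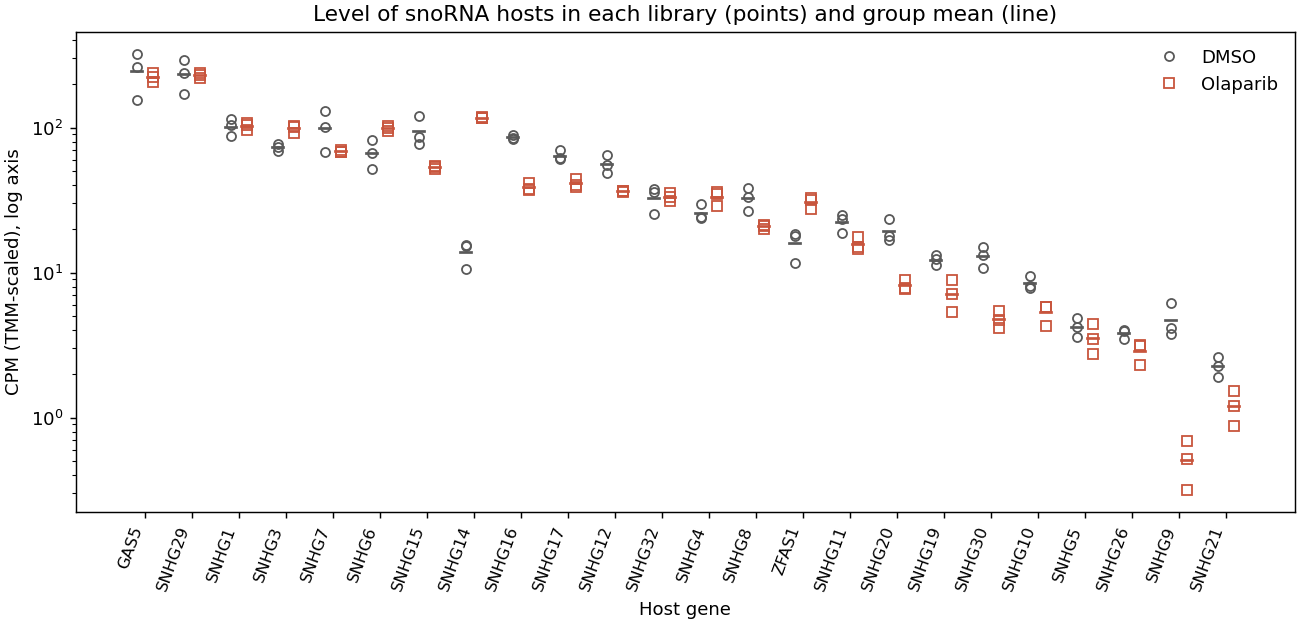
Level in CPM (log axis) of the 24 tested snoRNA hosts with a mean of at least 1 CPM, ordered by mean level; circles are DMSO libraries, squares olaparib libraries and short lines group means. GAS5 and SNHG29, at over 200 CPM, have overlapping groups with a wide DMSO spread, whereas SNHG14 (117 against 13.8 CPM) and SNHG9 (0.509 against 4.70 CPM) have groups far apart.

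The remaining 8 snoRNA hosts showed no called difference. GAS5, the growth arrest transcript that carries box C/D RNAs in its introns, held 207, 224 and 240 CPM in olaparib and 156, 322 and 261 CPM in DMSO. The DMSO libraries spanned the olaparib values on both sides (log2 -0.14 ± 0.20 SE, edgeR adjusted p = 0.546). Without DMSO replicate 1 it was called lower (log2 -0.40, edgeR adjusted p = 0.00845), and without DMSO replicate 2 its sign turned (0.09).

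SNHG29 held 222, 239 and 230 CPM against 170, 291 and 237 CPM, and SNHG1 104, 108 and 96.7 CPM against 87.5, 114 and 104 CPM. Both had overlapping groups, with log2 fold changes of -0.02 ± 0.16 and 0.02 ± 0.11 SE (edgeR adjusted p = 0.925 and 0.898). SNHG32 held 31.1, 35.5 and 33.1 CPM against 25.2, 37.8 and 35.9 CPM (edgeR adjusted p = 0.943), and SNHG5 2.75, 4.41 and 3.46 CPM against 4.20, 3.60 and 4.90 CPM (edgeR adjusted p = 0.352). Their groups overlapped as well. SNHG25, SNHG26 and SNHG31 were not called either (edgeR adjusted p = 0.243, 0.126 and 0.0606). SNHG31 passed with limma-voom (adjusted p = 0.045), with all counts divided by 2 (0.0455) and without DMSO replicate 1 (0.0457).

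The spread of snoRNA hosts within DMSO had a common order. Of 17 snoRNA hosts with a mean of at least 10 CPM, 13 (76.5%) were lowest in DMSO replicate 1 and 14 (82.4%) highest in DMSO replicate 2. Of all 10432 genes tested at that level, 30.7% were lowest in DMSO replicate 1 and 35.0% highest in DMSO replicate 2. Protein-coding hosts of snoRNAs had the same order, with 26 of 32 lowest in the former and 26 highest in the latter. The median coefficient of variation of snoRNA hosts was 18.7% in DMSO and 5.84% in olaparib, against 11.3% and 6.27% for all those genes. This order was noticed in the values and carries no test.

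Per kilobase of exon (GENCODE 29, all exons of a gene merged), SNHG6, GAS5 and SNHG29 had the highest values of the hosts. These were 79.5, 61.6 and 61.2 CPM per kb in olaparib and 53.8, 67.9 and 62.0 in DMSO. The merged length (1247 bases for SNHG6, 3631 for GAS5) can exceed that of a spliced transcript, so ranks between genes depend on the annotation. The highest microRNA host with an exon length was MIR22HG, at 25.1 CPM per kb in olaparib and 3.43 in DMSO. SNHG14, long as it is, came to 2.70 and 0.319 CPM per kb. The order of GAS5, SNHG29 and SNHG6 differed between the groups; in DMSO their libraries overlapped, and in olaparib SNHG6 stood apart from the other two.

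The 41 hosts that were not tested held few or no counts. No library had a count of MIR205HG, a transcript of basal and squamous epithelium, nor of 15 other hosts, among them MIR122HG (liver) and MIR223HG (myeloid cells). MIR155HG, known from activated B cells, had 11 counts over the olaparib libraries and 6 over DMSO. MIR137HG had 2 counts in olaparib and 46 in DMSO. Its ratio was 17.4-fold (95% counting interval 4.54 to 148). In the same direction, MIR4713HG had 0 and 58, at least 14.6-fold lower (7.29-fold with the doubled floor). MIR3659HG held 11 and 42 counts. DESeq2, and edgeR with no filter beyond 1 count, called MIR137HG and MIR4713HG lower, so the count of lower microRNA hosts depends on the filter. Intervals and bounds from counts cover counting error only, and the interval would be wider if each read of a pair was counted.

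The small RNAs inside the hosts were hardly measured. RefSeq places 254 of them in the hosts, and 236 have a row in the table: 130 snoRNAs, 102 microRNAs and 4 small Cajal body RNAs. Of these rows 203 held no count and 28 too few to test. No microRNA row was tested; MIR221 had most, with 8 counts in olaparib and 13 in DMSO, and MIR1915, MIR4500 and MIR3619 had 10 or 11 over all 6 libraries. SNORD12C in ZFAS1 held 22 and 25 counts and SNORD93 in SNHG26 4 and 6.

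All 5 small RNAs tested were snoRNAs. SNORA73B, a box H/ACA RNA in SNHG3, had 107, 102 and 101 counts in olaparib and 89, 41 and 42 in DMSO. Relative to library size it was higher, as its host was (log2 1.26 ± 0.31 SE, edgeR adjusted p = 0.00286). SNORD1B, a box C/D RNA in SNHG16, had 26, 15 and 15 counts against 10, 11 and 11 and was called higher while its host was lower (log2 1.18 ± 0.47 SE, edgeR adjusted p = 0.0379). That call held in 4 of 14 alternatives. The row was not tested with at least 1 CPM in 3 libraries or with counts divided by 2, and the call was lost in 8, namely no filter beyond 1 count (edgeR adjusted p = 0.0993), the replicate number as a block (edgeR adjusted p = 0.0996), DESeq2 (0.124) and the loss of olaparib replicate 1 (0.186), 2 (0.0505) or 3 (0.0571) or of DMSO replicate 1 (0.113) or 3 (0.117). SNORD99 in SNHG12, SNORD104 in SNHG25 and SNORA71B in SNHG17 were not called (edgeR adjusted p = 0.22, 0.157 and 0.625). The sequence of SNORD1B (GENCODE 29, chr17:76561109-76561192, plus strand) is shown since it differs from its host in direction, with box C (TGATGA) and box D (CTGA) in capitals.
SNORD1B: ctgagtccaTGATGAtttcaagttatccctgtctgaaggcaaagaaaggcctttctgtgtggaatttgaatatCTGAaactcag

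Of 18 proteins of box C/D and H/ACA particles and their assembly factors, 15 were lower and 3 were not called (83.33% called), with a median log2 fold change of -0.88. Over all genes tested 40.3% were lower and 75.7% called, with a median of -0.09. NOP58 (-0.11), DKC1 (-0.04) and TGS1 (-0.14) were those that did not pass. The log2 fold change was below 0 for all 18. FBL, the methyltransferase of box C/D particles, was 3.70-fold lower, at 85.4 ± 2.15 CPM in olaparib and 316 ± 36.8 CPM in DMSO (SD, n = 3). NOP56, its partner and itself a snoRNA host, was 4.31-fold lower, NHP2, a subunit of H/ACA particles, 3.65-fold and the assembly ATPase RUVBL2 2.92-fold. In each of these 4 genes the groups were apart.

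Among 19 tested genes of microRNA processing and Argonaute proteins, 6 were higher, 6 lower and 7 not called, with a median of -0.14. The share called was 63.16%, below the 75.7% of all genes, of which 35.4% were higher and 40.3% lower. LIN28B, which blocks the maturation of let-7 and is also one of the kidney line markers above, was without a count in olaparib, against 42.6 ± 8.06 CPM in DMSO (SD, n = 3), and so at least 1268-fold lower (634-fold with the doubled floor). TUT7, a terminal uridylyltransferase of let-7 precursors, was 4.28-fold higher, and DIS3L2, the nuclease that degrades uridylated precursors, 2.39-fold lower. TNRC6C, which silences targets beside Argonaute, was 5.80-fold lower. DROSHA was among the higher genes (log2 1.16 ± 0.12 SE, edgeR adjusted p = 2.69e-06), while DICER1 was not called.

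Of 16 factors of nonsense-mediated decay, 5 were higher, 7 lower and 4 not called, with a median of -0.15. The 75.0% called is near the 75.7% of all genes and is no result about these factors. XRN1, the exonuclease that degrades the cut RNA, was 2.59-fold higher and UPF3A 1.84-fold higher. MAGOH and RBM8A, the core of the exon junction complex, were 2.27-fold and 1.77-fold lower. UPF1, the central helicase, was not called (log2 -0.01).

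Protein-coding hosts were counted beside the hosts chosen by name, with no test between them, and against 40.3% lower and 35.4% higher over all genes. Of 33 protein-coding hosts of snoRNAs, 27 were lower, 2 higher and 4 not called, with a median of -1.09. RPSA, RPS2 and RPS13, which encode proteins of the small ribosomal subunit, were 5.48-fold, 4.62-fold and 3.27-fold lower. This list shares NOP56 and DKC1 with the list of snoRNA particle proteins and assembly factors, and many of its members are ribosomal protein genes. Of 20 protein-coding hosts of microRNAs, 11 were higher, 6 lower and 3 not called, with a median of 0.40. SREBF1, the host of miR-33b and a regulator of lipid synthesis, was 8.65-fold higher, and MEST, an imprinted gene and the host of miR-335, 10.0-fold higher. CTDSPL, the host of miR-26a-1, and EVL, the host of miR-342, were 3.20-fold and 2.67-fold lower. Of 11 non-coding hosts outside the name rule, some of them MIR names with a hyphen, 7 were tested, 2 of them higher and 4 lower. FTX and MIR4435-2HG were 4.02-fold and 6.37-fold higher, and DANCR and MIR9-1HG 2.96-fold and 5.55-fold lower.

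**Figure D4:**
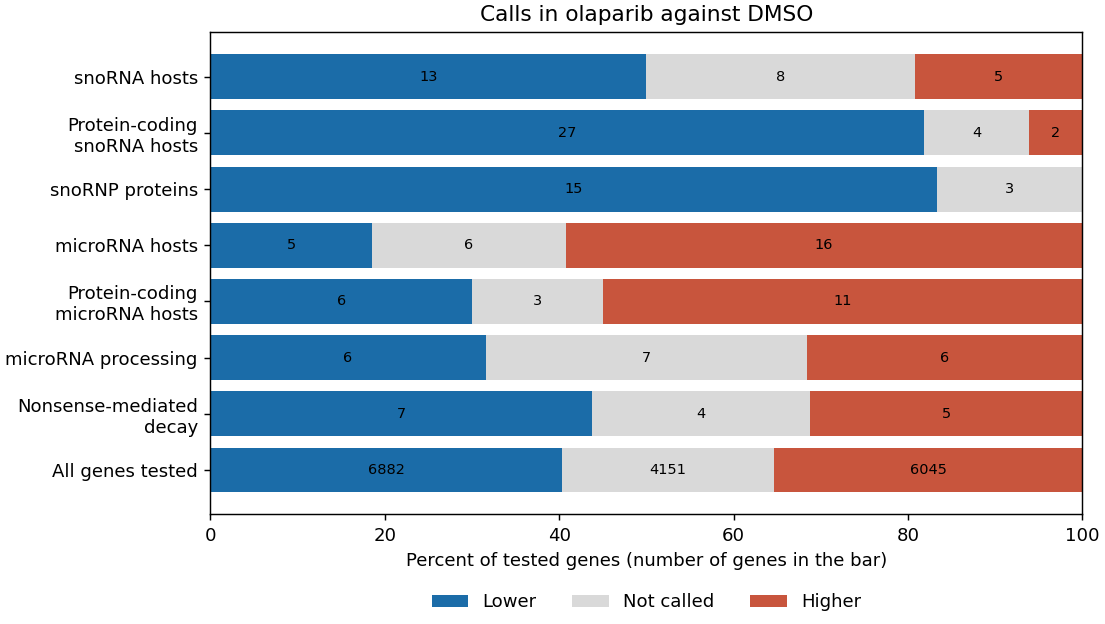
Share of tested genes (percent, x axis) called lower, not called and called higher in olaparib for the 2 host classes, 5 related lists and all genes tested; numbers in the bars are genes. The lower share is widest for proteins of snoRNA particles with their assembly factors (15 of 18) and protein-coding snoRNA hosts (27 of 33). The higher share is widest for microRNA hosts (16 of 27).

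Genes around the hosts were compared to set each host beside its chromosome region. For 52 tested hosts with at least 5 tested protein-coding genes within 5 Mb, the median log2 fold change of these neighbours lay between -0.96 and 1.18. The host and its neighbours had the same sign for 34 of the 52. Across these hosts, which share libraries and in part neighbours, Pearson's r was 0.27 and Spearman's rho 0.33, given as a description only. MIR4458HG had the highest neighbours (1.18, beside its own 1.74) and MIR2052HG the lowest (-0.96). MIR34AHG (3.14 against -0.64) and MIRLET7BHG (2.22 against -0.60) stood opposite to theirs.

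**Figure D5:**
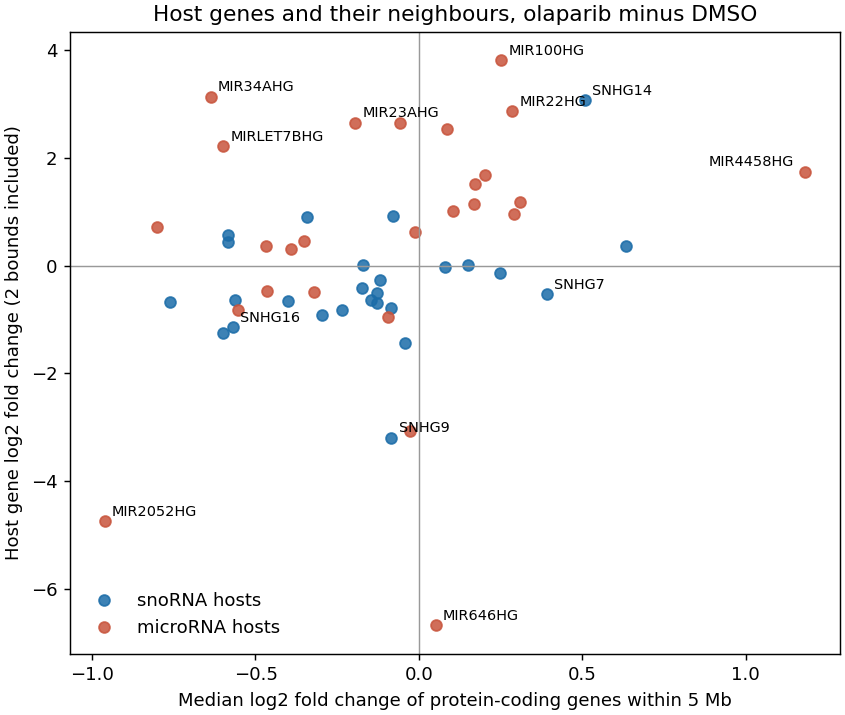
Log2 fold change of 52 hosts (y axis, olaparib minus DMSO, with bounds for the 2 genes without an olaparib count) against the median log2 fold change of tested protein-coding genes within 5 Mb (x axis). Points of both classes lie within a narrow range of neighbour medians, -0.96 to 1.18, while the hosts themselves span from MIR646HG at the bottom to MIR100HG (3.81) at the top.

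Many hosts overlap a protein-coding gene, and such pairs did not always go the same way. MCMDC2 was higher beside SNHG6 (log2 2.45 ± 0.44 SE), whereas NR6A1 was lower (log2 -1.95 ± 0.15 SE) where MIR181A2HG was higher. Both passed edgeR's test (adjusted p = 0.000286 and 2.04e-07). The sources used here do not say how reads in the shared stretches were assigned.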

How the data were processed

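The authors deposited 1 table of raw counts per gene symbol, with a column for each of the 6 libraries. Per the labels' protocols, total RNA was extracted with a kit that retains small RNA. Reads were handled with fastp and STAR on build hg38, per the submitters' processing notes. Counting program, strand and annotation: not given in the sources used here. Genes with 2 counts outnumbered genes with 1 count in every library, which was not traced to a cause. If each read of a pair was counted, counting intervals are too narrow and floors too low, so bounds are also given with a doubled floor of 6 counts, an alternative added after seeing the data.

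The quasi-likelihood test of edgeR 4.0.16 (R 4.3.3) was run on counts of all genes (filterByExpr with a minimum count of 10, TMM, robust fit, group as the only term), with Benjamini-Hochberg adjustment over all 17078 genes tested and a threshold of 0.05. The script was first tested on simulated data in which few genes differed. That does not show how it fares where most genes are called, as here. SEs were derived from the F statistic. CPM divides counts by the TMM-scaled library size. Where a group is without counts, folds use a floor of 3 counts over it. Libraries of 1 group were farther apart than sampling noise (chi-square per degree of freedom 4.74 to 68.6). Sequences and positions came from RefSeq GRCh38.p14 (92 of 94 hosts matched by symbol) and GENCODE 29 (84 exon lengths).

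Genes were named by rule: among called hosts, the 12 with the highest and the 12 with the lowest fold change at a mean of at least 1 CPM, 21 hosts fixed by name, hosts without a count in 1 group, hosts not called at 10 CPM or more, in each list the 4 called genes of lowest adjusted p, and small RNAs with at least 10 counts. Other hosts, keratins and CDX genes, uncalled list members, overlapping genes and the order of DMSO libraries were named after their values were seen, as were DROSHA, DICER1 and UPF1. The hosts, lists and rule were chosen with earlier results of these data known. Alternatives were DESeq2 1.42.0, limma-voom (limma 3.58.1), RLE size factors, library size alone, 2 other filters, the replicate number as a block, all counts divided by 2 and the loss of each library in turn.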

Additional observations from a re-analysis of the deposited data

How the results depend on the processing

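Of the 39 hosts called, 34 to 39 were also called under each of 14 alternatives, 0 of them with the opposite sign, and 76 of 90 named genes kept direction and call wherever they were tested. The host counts stayed at 19 to 23 higher and 16 to 21 lower. With at least 1 CPM in 3 libraries, 3 microRNA hosts were lower instead of 5, since fewer genes were tested. Hosted small RNAs called higher were 1 instead of 2 with DESeq2, with that filter, with counts divided by 2 and with the replicate block, and 1 to 2 without each library. Low counts limit MIR2052HG, MIR4733HG and all small RNA rows.

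Of the uncalled hosts, 4 changed sign in places; the cause was not tested. SNHG32 gave -0.055 with library size alone, -0.00235 with no filter, and -0.16 to 0.11 without each library. SNHG1 gave -0.051 with library size alone, and -0.094 to 0.094 without each library. SNHG29 gave 0.012 with limma-voom, 0.00253 with at least 1 CPM, and -0.21 to 0.16 without each library. GAS5 ran from -0.395 to 0.0865 without each library.

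With the replicate number as a block, 39 of 39 host calls were shared, and 21 hosts were higher and 18 lower as before; SNHG29 gave 0.0157 and SNORD1B lost its call. Same-numbered libraries did not deviate together (correlations -0.18, -0.13 and -0.01). Deviations from a mean of 3 libraries are tied to each other, so this cannot show whether the numbers pair the samples.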
